A study of Drosophila melanogaster with 2 samples.

Results

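The genes that pattern the axes of the Drosophila melanogaster embryo were examined for chromatin binding of ADD1, measured by ChIP-seq in whole embryos. The set comprised 45 genes of segmentation and dorsoventral patterning, listed by symbol and found by that symbol among 18277 annotated genes, of which 13968 were protein-coding. They fall into 2 maternal genes, 7 gap genes, 9 pair-rule genes, 9 segment polarity genes, 8 dorsoventral regulators and 10 genes of the BMP pathway and dorsal ectoderm. The embryos came from 1 transgenic line that stably expresses CG8290 (ADD1) carrying GFP at its C terminus, were 0 to 14 hours old, and pooled both sexes. Their chromatin was sonicated to 200 to 800 bp. There was 1 group of 2 biological replicates, numbered 2 and 3. A free description in the labels names both samples as inputs, whereas the antibody label names CG8290. They were treated as ChIP, and no input, untagged or GFP-only sample was analysed here. Which promoter drives the fusion is not stated in the labels, and a pool of whole embryos cannot assign a peak to the cells that transcribe a gene.

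The body plan of the fly embryo is laid down by a cascade of regulators. Maternal gradients set the domains of the gap genes, gap proteins set the stripes of the pair-rule genes, and the segment polarity genes, which include the Wingless and Hedgehog pathways, fix the boundaries within each segment. Along the other axis, nuclear Dorsal protein activates mesodermal and neurectodermal genes ventrally, and signalling by Dpp, a BMP, specifies dorsal ectoderm and amnioserosa. ADD1 carries an ADD domain, a zinc-binding fold that in other chromatin proteins reads the tail of histone H3, and it is known as a partner of heterochromatin protein 1.

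The authors' optimal list of 2478 peaks placed a summit, the position of highest signal in a peak, within 500 bp of a start site of hry, ci and vnd, 3 of the 45 patterning genes, against 12.6% of protein-coding genes. Sequences from the strongest peak of each of 4 patterning genes are given, from start sites (vnd and hry) and introns (cad and nkd). They run 5′ to 3′ on the plus strand of dm6, from the RefSeq sequence of that assembly, with bases of untranslated exons left out. Capitals mark exact matches to any of the 14 motifs searched on both strands. The vnd sequence (chrX:581904-582120) ends at the base before the vnd start and holds the summit. The hry sequence (chr3L:8675695-8675758) is the stretch just before the hry start, with the summit beyond its end. The cad sequence (chr2L:20780790-20781088) and the nkd sequence (chr3L:19042605-19042903, where nkd lies on the minus strand) are intronic and centred on the summit.
vnd: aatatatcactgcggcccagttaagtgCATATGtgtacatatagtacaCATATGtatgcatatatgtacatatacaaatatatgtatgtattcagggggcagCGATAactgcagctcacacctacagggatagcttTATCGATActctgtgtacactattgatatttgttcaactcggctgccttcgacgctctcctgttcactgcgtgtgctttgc
hry: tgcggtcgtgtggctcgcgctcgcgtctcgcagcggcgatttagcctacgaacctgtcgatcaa
cad: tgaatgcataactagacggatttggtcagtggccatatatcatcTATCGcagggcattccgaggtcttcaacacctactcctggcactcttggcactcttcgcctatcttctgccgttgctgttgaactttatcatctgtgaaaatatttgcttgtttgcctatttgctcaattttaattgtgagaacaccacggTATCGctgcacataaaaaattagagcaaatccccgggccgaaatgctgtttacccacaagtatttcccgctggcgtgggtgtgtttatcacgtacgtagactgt
nkd: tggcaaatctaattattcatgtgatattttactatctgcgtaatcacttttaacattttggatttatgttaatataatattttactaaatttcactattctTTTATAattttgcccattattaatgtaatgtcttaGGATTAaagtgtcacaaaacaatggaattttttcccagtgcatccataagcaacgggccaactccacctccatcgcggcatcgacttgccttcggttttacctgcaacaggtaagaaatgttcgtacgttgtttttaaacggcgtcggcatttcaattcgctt

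The vnd sequence held a DNA replication-related element (DRE, TATCGATA), the site read by the promoter factor Dref, beginning 13 bp upstream of the summit. The core of the site of the insulator protein BEAF-32 (CGATA) lies inside the DRE and matched there on each strand, and a further copy of the core stood 47 bp upstream of the summit. The E-box of Twist (CATATG) matched at 122 and 101 bp upstream of the summit. The cad sequence held the BEAF-32 core on the minus strand at 105 bp upstream and 46 bp downstream of the summit along the plus strand. In the nkd sequence a TATA match (TATAAA, minus strand) stood 48 bp and a Bicoid site (TAATCC, minus strand) 13 bp before the summit. No motif matched in the stretch printed for hry, whose peak held the BEAF-32 core in the untranslated exon that is not printed. A match is a description of letters, and binding by the named factors was not measured.

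Across the optimal list, a summit within 500 bp of a start site was found at 3 of the 45 patterning genes (6.67%, 95% exact binomial interval 1.40 to 18.3), against 12.6% of protein-coding genes and 10.5% of all annotated genes. A summit inside the gene body was found at 7 patterning genes (15.6%, 6.49 to 29.5), cad, hry, wg, ptc, ci, nkd and twi, against 7.36% of protein-coding genes and 6.24% of all genes. Within 10 kb of the gene the count was 17 of 45 (37.8%, 23.8 to 53.5), against 44.1% of protein-coding genes and 41.7% of all genes. All 3 intervals contain the share of protein-coding genes, and those of the start-site and 10 kb shares contain the share of all genes, whereas the body share of all genes lies just below its interval. The patterning genes were longer than protein-coding genes, with a median of 4205 bp against 2164.5 bp, and their 10 kb windows held fewer other genes, with a median of 3 against 6. Per kb of gene body there were 0.0215 optimal summits in patterning genes and 0.0151 in protein-coding genes, and per kb of 10 kb window 0.0264 and 0.0276. Intervals cover the counting of genes only, because the lists hold no read counts, and the 45 genes are not replicates of each other.

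**Figure D1:**
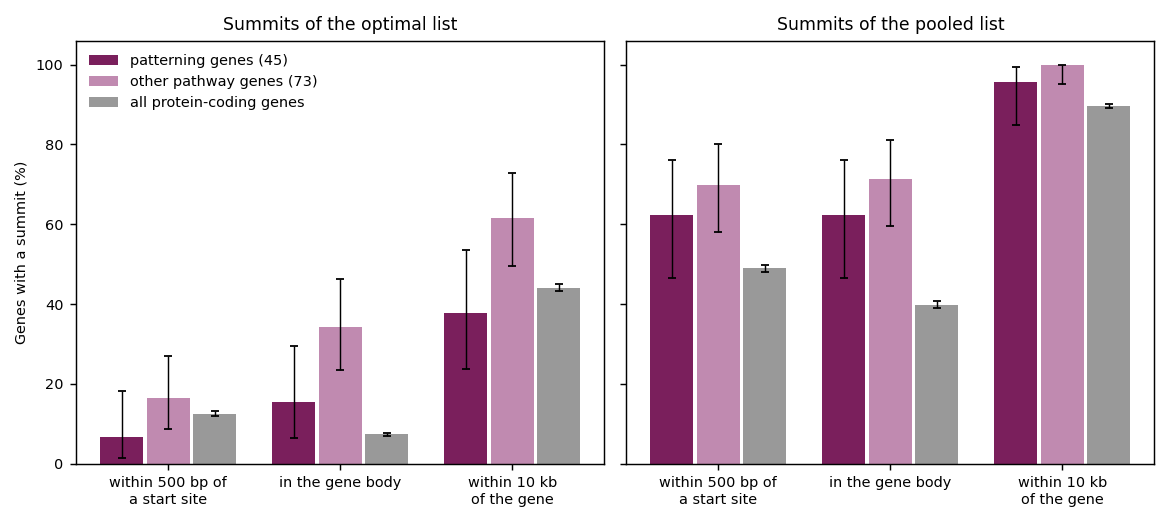
Share of genes (y axis, %) with a summit of the optimal list (left) or the pooled list (right) within 500 bp of a start site, in the gene body and within 10 kb of the gene, for patterning genes, other genes of the same pathways and all protein-coding genes. Bars start at 0 and error bars are 95% exact binomial intervals; the patterning genes have 6.67%, 15.6% and 37.8% in the optimal list.

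Each replicate gave nearly the same counts when its own 2478 strongest regions replaced the optimal list. At start sites, 2 patterning genes (4.44%) had such a region in replicate 2, where 12.3% of protein-coding genes had one, and 4 (8.89%) in replicate 3, where 12.4% had one. In the gene body the count was 7 in each replicate, against 7.21% of protein-coding genes in replicate 2 and 7.65% in replicate 3. Within 10 kb it was 16 (35.6%) in replicate 2 and 18 (40%) in replicate 3, against 43.9% and 43% of protein-coding genes. The start-site genes that differed between the replicates were hry and ptc. The hry region at its start site ranked 2727 in replicate 2 and 1592 in replicate 3, and the ptc region at its start site ranked 22881 in replicate 2 and 965 in replicate 3. Just outside, the start-site region of sog ranked 2480 and that of tup 2525 in replicate 3.

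Measured to the nearest start site of its patterning gene, no summit lay close to the distance threshold of 500 bp. The 3 summits inside it lay 68 bp (vnd), 85 bp (hry) and 157 bp (ci) from a start site. The ci summit lay 553 bp from the other ci start site, at the 5′ end of the gene record. With that end alone for each gene, the count was 2. The nearest optimal summits outside it lay 2118 bp from the start of slp1, 2131 bp from that of ci and 2297 bp from that of ptc.

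Of the maternal genes, bcd encodes the anterior morphogen Bicoid and cad a homeodomain protein of the posterior. The cad gene (FBgn0000251, chr2L:20770731-20783135, plus strand) held 1 optimal peak in an intron, with rank 1106 and signal 191.9 in the pooled data, rank 1380 in replicate 2 and rank 1232 in replicate 3. It lay 10045 bp downstream of the nearest cad start site. The authors' signal has no stated scale and serves here only to rank regions within a list, so that ranks are the values compared between replicates. The bcd gene (FBgn0000166, chr3R:6755842-6759466, minus strand) held none itself, and the peaks near it are shared with zen.

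None of the 7 gap genes had an optimal summit at a start site or in the body, which for 7 genes allows a share of up to 41.0%, against 12.6% of protein-coding genes at start sites and 7.36% in the body. These encode the zinc finger, leucine zipper and nuclear receptor proteins of the first zygotic tier. Only gt (FBgn0001150, chrX:2427113-2428967), a leucine zipper repressor, had one within 10 kb, where 44.1% of protein-coding genes do, 2397 bp beyond its 3′ end, with rank 1632 and signal 162.8 in the pooled data. The gt peak ranked 3511 in replicate 2 and 992 in replicate 3, and is therefore among the 2478 strongest regions of replicate 3 but not of replicate 2. The next best pooled ranks within 10 kb were 3414 for kni, in its gene body (signal 112.6), and 7229 for hkb (signal 74.11). The kni region ranked 3919 in replicate 2 and 3214 in replicate 3. The best pooled regions near knrl, Kr, hb and tll ranked between 8243 (knrl) and 13030 (tll).

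Among the 9 pair-rule genes, optimal summits lay within 10 kb of hry, slp1, slp2 and prd. The gene hry (hairy, FBgn0001168, chr3L:8675759-8679253, plus strand), a basic helix-loop-helix repressor, carried a peak 85 bp downstream of its first start site, with rank 1621 and signal 163.3. The strongest pair-rule region lay between the forkhead genes slp1 (FBgn0003430, chr2L:3825675-3827099) and slp2 (FBgn0004567, chr2L:3836840-3839185), 4298 bp upstream of slp2. Its rank was 416 in the pooled data (signal 289.8), 260 in replicate 2 and 807 in replicate 3. A further peak between these neighbours, 694 bp beyond the 3′ end of slp1, ranked 979 (signal 202.4), with 1852 in replicate 2 and 685 in replicate 3. Both lay in intergenic sequence, more than 2 kb from any start site.

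The peak within 10 kb of prd (FBgn0003145, chr2L:12082995-12085827), which encodes a paired-domain protein, stood 92 bp from the start site of CG14947 and 6803 bp from prd itself. It ranked 1499 in the pooled data (signal 168.7), 1582 in replicate 2 and 1328 in replicate 3. The other 5 pair-rule genes had no optimal summit within 10 kb, and their best pooled regions there ranked 2620 for opa, 5626 for odd, 8453 for eve, 12971 for run and 17234 for ftz. The opa region lies close behind the last optimal peak and ranked 2464 in replicate 2 and 2636 in replicate 3.

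Segment polarity genes held 6 of the 11 peaks that lay at or in a patterning gene. All 4 segment polarity genes with an optimal summit within 10 kb, wg, ptc, ci and nkd, had one in the gene body, 4 of 9 genes (44.4%, 13.7 to 78.8), against 7.36% of protein-coding genes. They encode the ligand Wingless, the Hedgehog receptor Patched, the Hedgehog effector Cubitus interruptus and the Wingless inhibitor Naked cuticle. Their records span 9107 bp (wg) to 41709 bp (nkd), against a median of 2164.5 bp for protein-coding genes, and the part of length was not tested. A body summit was also found in 34.2% of 73 other genes of the patterning pathways. The nkd gene (FBgn0002945, chr3L:19003741-19045449) had 3 optimal summits inside its 41709 bp, the most in any patterning gene's body. The first, printed above, lay in an intron 2695 bp downstream of the start site, with rank 762 and signal 229.3, rank 808 in replicate 2 and rank 1247 in replicate 3. The second lay 12076 bp from the start in an exon of lncRNA:CR45940, with rank 1020, against 714 in replicate 2 and 2017 in replicate 3. The third, 20383 bp from the start in an intron, ranked 1975, with 2447 in replicate 2 and 1867 in replicate 3. The nkd peaks were thus among the 2478 strongest regions of both replicates.

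The ci gene (FBgn0004859, chr4:47710-57041, minus strand) is the only patterning gene on chromosome 4, which is known to be rich in heterochromatin protein 1. Its own peak lay 157 bp from a start site, 9 bp from that of the antisense gene asRNA:CR43957, and ranked 775 with signal 227.7, 1157 in replicate 2 and 592 in replicate 3. With 5 further peaks in the 10 kb on either side, ci had 6 in all, as many as ptc. One of the 5 lay at the start site of PlexB, a semaphorin receptor gene (rank 1256), and one at that of lncRNA:CR44440 (rank 1589). The others ranked 1011, 1731 and 2362, and those of rank 1589 and 2362 were not among the strongest regions of both replicates. For the peak of rank 1256, the nearest summit ranked 817 in replicate 2 but 4497 in replicate 3.

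The ptc gene (FBgn0003892, chr2R:8649649-8665223, plus strand) had 1 optimal summit in an intron, 4724 bp downstream of its start, with rank 703 and signal 236.5, 1822 in replicate 2 and 343 in replicate 3. A group of 4 stood upstream, at 2297, 5312, 6547 and 6747 bp from the start site, in intergenic sequence. Of these, the peak at 6747 bp was the strongest, with rank 295 and signal 331.4, 372 in replicate 2 and 203 in replicate 3. That at 2297 bp ranked 769, with 1443 in replicate 2 and 549 in replicate 3, and that at 5312 bp ranked 1546. The summit at 6547 bp ranked 2341 and lies inside an interval that overlaps the peak at 6747 bp. Its nearest summit ranked only 24420 in replicate 2 but 617 in replicate 3. The sixth summit lay in an intron of the neighbour Acsl, with rank 2200.

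The wg gene (FBgn0284084, chr2L:7307159-7316265, plus strand) had its peak in the 3′ untranslated region, 8572 bp from the start, with rank 1845 and signal 154.6, 1884 in replicate 2 and 1760 in replicate 3. The wg start site itself held a weaker pooled region of rank 3233. The 5 segment polarity genes without an optimal summit within 10 kb were en, inv, hh, gsb and gsb-n, with best pooled ranks between 3041 (inv) and 7943 (gsb and gsb-n, the same region).

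**Figure D2:**
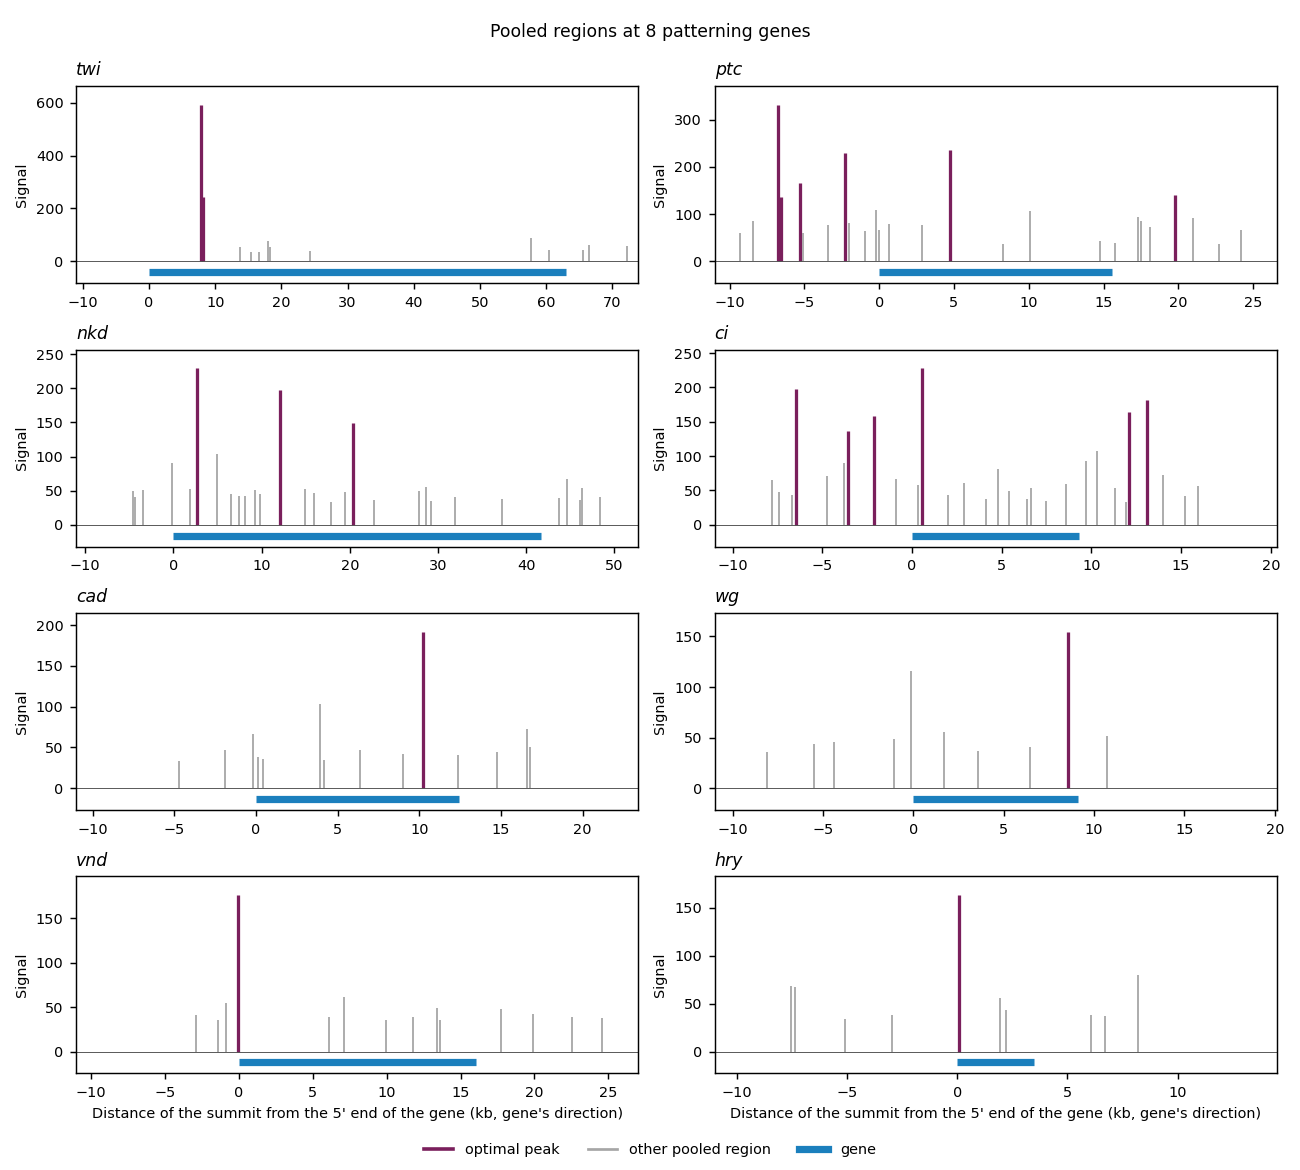
Signal of pooled regions (y axis, the authors' value per region) against distance of the summit from the 5′ end of the gene (x axis, kb in the direction of the gene) for the 8 patterning genes with an optimal summit at a start site or in the body. Tall dark lines are optimal peaks, thin grey lines other pooled regions, and the blue bar the gene record; in twi, ptc, nkd, cad and wg the optimal peaks stand away from the 5′ end, and in vnd, hry and ci one stands within 500 bp of a start site.

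Of the 8 dorsoventral regulators, twi, vnd, brk and dl had an optimal summit within 10 kb. The strongest peak of any patterning gene lay in the record of twi (FBgn0003900, chr2R:22985374-23048325, plus strand), which encodes the mesodermal activator Twist. It ranked 53 in the pooled data with signal 591.1, 47 in replicate 2 and 76 in replicate 3. A second summit beside it ranked 646 with signal 244, 148 in replicate 2 and 550 in replicate 3. Both stood in an intron of a record of 62952 bp, 7895 and 8132 bp downstream of the first annotated start site. The nearest start site of any gene was that of CG9896, 5615 and 5378 bp from the 2 summits. The other annotated twi start sites lay 52.84 and 53.05 kb downstream of the summit of rank 53. At the start sites of twi, the best pooled region ranked 19879.

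The gene vnd (FBgn0261930, chrX:582121-598151, plus strand), a homeodomain gene of the ventral neurectoderm, had its summit 68 bp upstream of the start site. It ranked 1348 with signal 176, 1715 in replicate 2 and 1246 in replicate 3. The peak nearest brk (FBgn0024250, chrX:7307939-7311132), a repressor of Dpp targets, lay 6340 bp upstream in an intron shared by CG1677 and lncRNA:CR44357, with rank 1188, 1028 in replicate 2 and 1375 in replicate 3. A weaker peak 8111 bp beyond the 3′ end of brk ranked 2272. The peak counted for dl (FBgn0260632, chr2L:17436830-17450364), which encodes the Rel-family morphogen Dorsal, lay 6662 bp beyond its 3′ end and 462 bp from the start of lncRNA:CR44409. It ranked 2018, with 2080 in replicate 2 and 2850 in replicate 3. The repressor gene sna, the BMP antagonist gene sog, the protease gene rho and the homeodomain gene ind had none, and their best pooled regions within 10 kb ranked 5548, 3085, 11244 and 10754.

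The 10 genes of the BMP pathway and dorsal ectoderm had no optimal summit at a start site or in the body, which for 10 genes allows a share of up to 30.9%, against 12.6% of protein-coding genes at start sites and 7.36% in the body. Within 10 kb, zen (FBgn0004053, chr3R:6752864-6754194), a homeodomain gene of the amnioserosa, shared its peaks with bcd. They ranked 500 (signal 269.3) and 909 (signal 210.2) and stood at the start sites of lncRNA:CR45593 and of Ama, an immunoglobulin-family adhesion gene. The stronger, 3431 bp upstream of bcd, ranked 318 in replicate 2 and 877 in replicate 3. The weaker, 3670 bp upstream of bcd, ranked 658 in replicate 2 and 1815 in replicate 3. The peaks near tup (FBgn0003896, chr2L:18859507-18881261), a LIM-homeodomain gene, ranked 504 and 1318. The first stood 89 bp from the start of CG10602, with 501 in replicate 2 and 590 in replicate 3, and the second 8992 bp upstream of tup, with 879 in replicate 2 and 3773 in replicate 3.

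Next in rank came Doc3, a T-box gene, whose best pooled region within 10 kb ranked 2880 (signal 123.3). The best regions there ranked 2792 in replicate 2 and 1474 in replicate 3. That of replicate 2 was a different region, which also lay within 10 kb of Doc2, where the best pooled rank was 3419. The pooled list had no region at all within 10 kb of tld and scw, which encode a protease that releases Dpp and a BMP ligand. Replicate 2 alone listed 1 region near tld, of rank 26311, and 2 near scw, the better of rank 19397. For Doc2, dpp, Doc1, pnr and tsg the best pooled ranks were between 3419 (Doc2) and 13727 (tsg).

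The 32 distinct optimal peaks within 10 kb of patterning genes lay less often at start sites than the whole list. They were clustered, with 6 within 10 kb of ptc and 6 within 10 kb of ci. The intervals count peaks as separate and do not allow for this. Of the 32, 10 lay at a start site of any gene (31.2%, 16.1 to 50.01), against 57.9% of the 2478 optimal peaks. Intergenic peaks numbered 9 (28.1%, 13.8 to 46.8), against 10.3%, and intronic peaks 10 (31.2%), against 27.3%. The 4 upstream of ptc are among the intergenic ones. Of the 21 that were neither at nor in a patterning gene, 7 stood at the start site of another gene, and 4 of the 32 were within 10 kb of a pair of patterning genes. The median distance to the nearest start site was 2220 bp, against 279 bp over all optimal peaks. The windows of patterning genes also held fewer other genes, as given above, and the part of gene spacing in this difference was not tested. Their median signal was 184.5, against 183.7 over the list, and their median GC content 36.3%, against 38.3% (SD over peaks 7.94 and 7.82 percentage points). Of the 32, 24 (75%, 56.6 to 88.5) overlapped a region among the 2478 strongest of both replicates, against 69.0% of all optimal peaks. Overlap of 1 bp with any such region was enough. The ptc peak of rank 2341 is thus among the 24, although its nearest summit in replicate 2 ranked 24420. So is the peak of rank 1256 at the PlexB start site, whose nearest summit in replicate 3 ranked 4497. Of the 11 at or in a patterning gene, hry was the exception to that overlap.

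Weaker regions were listed at many patterning genes, as at many protein-coding genes. In the pooled list of 30000 regions, which holds peaks and background together, summits were found within 500 bp of a start site at 28 of 45 patterning genes (62.2%, 46.5 to 76.2), against 48.9% of protein-coding genes. They were found in the body of 28 (62.2%, 46.5 to 76.2), against 39.8%, and within 10 kb of 43 (95.6%, 84.8 to 99.5), against 89.7%. The start-site and 10 kb intervals contain the share of protein-coding genes, and the body interval lies above it. Per kb of gene body there were 0.298 pooled summits in patterning genes and 0.218 in protein-coding genes. The patterning genes are longer, as given above, and the part of length was not tested. The number of pooled summits within 10 kb had a median of 8 per patterning gene (0 to 29), against 6 per protein-coding gene, or 0.312 and 0.255 per kb of window. Where a start-site region was present, its rank was lower down the list at patterning genes, with a median of 9413.5 against 5688. Of the 28 patterning genes with a listed start-site region, a share not told apart from that of protein-coding genes, ci, vnd and hry alone had one among the optimal peaks.

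**Figure D3:**
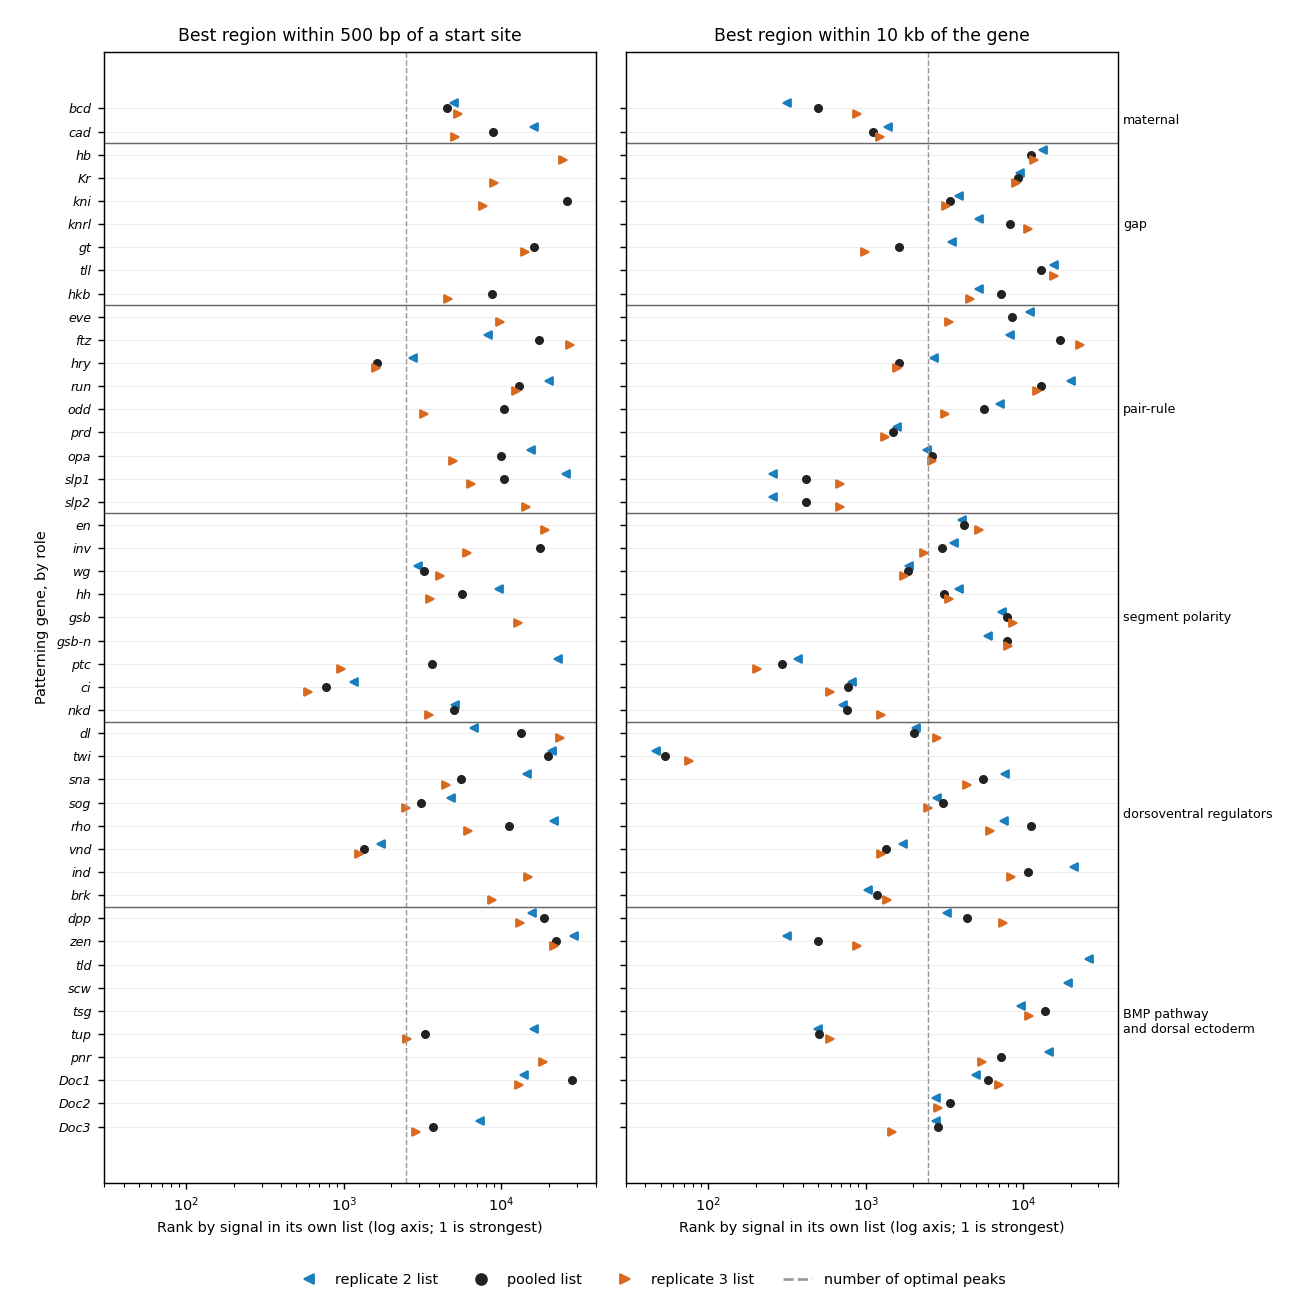
Rank of the best region of each patterning gene (x axis, log scale, 1 is strongest) within 500 bp of a start site (left) and within 10 kb (right), in the lists of replicate 2, both replicates pooled, and replicate 3. Rows are genes in order of role, a missing symbol means that the list has no region there, and the dashed line marks 2478, the number of optimal peaks; at start sites the pooled symbols of ci, vnd and hry alone lie left of it.

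The replicates differed in these weaker start-site regions. In replicate 3, 36 patterning genes (80%, 65.4 to 90.4) had a region at a start site, against 50.5% of protein-coding genes, whereas in replicate 2 there were 23 (51.1%, 35.8 to 66.3), against 45.5%. A region was listed in replicate 3 alone at 14 patterning genes (31.1%), against 12.3% of protein-coding genes, and in replicate 2 alone at 1, twi (2.22%), against 7.37%. The 14 were hb, Kr, kni, gt, hkb, eve, odd, slp2, en, inv, gsb, ind, brk and pnr. For the gap genes, the role with the widest difference, the counts were 5 of 7 in replicate 3 and 0 of 7 in replicate 2. In the same order they were 8 and 5 of 9 pair-rule genes and 8 and 5 of 9 segment polarity genes. They were 7 and 6 of 8 dorsoventral regulators, 6 and 5 of 10 BMP and dorsal ectoderm genes, and both maternal genes in each replicate. The median rank of the regions present was 6251 in replicate 3 and 13893 in replicate 2, against 5860.5 and 5849 for protein-coding genes. In the body the replicates were alike, with 27 patterning genes in replicate 2 and 29 in replicate 3, against 41.2% and 41.7% of protein-coding genes. Within 10 kb the counts were 45 and 43, against 95% and 86.9%. With 1 library for each replicate, the difference at start sites cannot be tested.

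**Figure D4:**
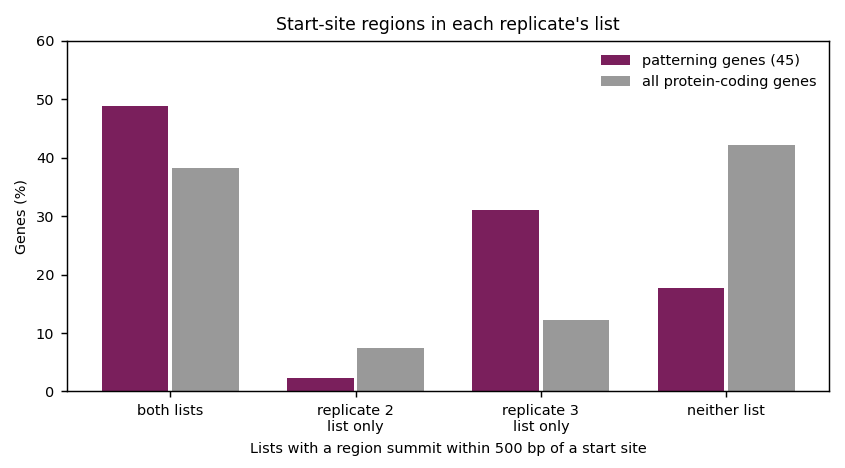
Share of patterning genes and of protein-coding genes (y axis, %) with a region within 500 bp of a start site in both replicate lists, in one of them only, or in neither. Bars start at 0; 31.1% of patterning genes but 12.3% of protein-coding genes have one in the list of replicate 3 only.

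Motif letters in the promoters of the patterning genes were compared with those in promoters of genes that carry an ADD1 peak at a start site. For a gene with several start sites, the peak may lie at another than the one scanned. In the window from 250 bp before to 50 bp after the 5′ end of each gene, exact matches on both strands were counted, beside those of the 1754 protein-coding genes with an optimal summit at a start site, and of all protein-coding genes. The DRE was in 2 of 45 patterning promoters (4.44%, 0.543 to 15.2), those of vnd and pnr, against 16.2% for genes with a peak and 9.36% for all. The BEAF-32 core was in 9 (20%, 9.58 to 34.6), against 57.0% and 47.3%. The element of the promoter factor M1BP (GGTCACAC) was in none, which for 45 promoters allows up to 7.87%, against 11.1% and 7.69%.

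The letters of GAGA factor, Zelda and the CA repeat had higher shares in patterning promoters. The repeat read by GAGA factor (GAGAGAG) was in 12 patterning promoters (26.7%, 14.6 to 41.9), among them hb, kni, tll, en, sna and sog. It was in 7.41% for genes with a peak at a start site and 5.86% for all protein-coding genes. The site of Zelda (CAGGTAG), an activator of the zygotic genome, was in 10 (22.2%, 11.2 to 37.1), including gt, ftz, odd, slp1 and sna, against 0.855% and 1.64%. A CA repeat (ACACACA) was in 11 (24.4%, 12.9 to 39.5), against 8.72% and 8.05%. The initiator letters TCAGTT were in 16 (35.6%, 21.9 to 51.2), against 18.5% and 26.1%, an interval that contains the share of all protein-coding promoters. TATAAA was less frequent, in 12 (26.7%, 14.6 to 41.9), against 45.3% and 45.8%. The sites searched for Bicoid (TAATCC), Dorsal (GGGAAAACC), Twist (CATATG), Snail (CAGGTG), Brinker (GGCGCC) and Caudal (TTTATGG) were each in 0 to 2 of the 45 patterning promoters. Of all protein-coding promoters, 8.73% held the Bicoid letters, 0.272% those of Dorsal, 7.81% Twist, 9.31% Snail, 4.54% Brinker and 6.67% Caudal. Of the 3 patterning genes with an optimal peak at a start site, vnd held the DRE, the BEAF-32 core and the Twist letters. The hry promoter held the BEAF-32 core, Zelda's site and the CA repeat, and that of ci held TATAAA. For ci the 5′ end scanned lay 553 bp from the summit, which stood nearer to another ci start site.

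**Figure D5:**
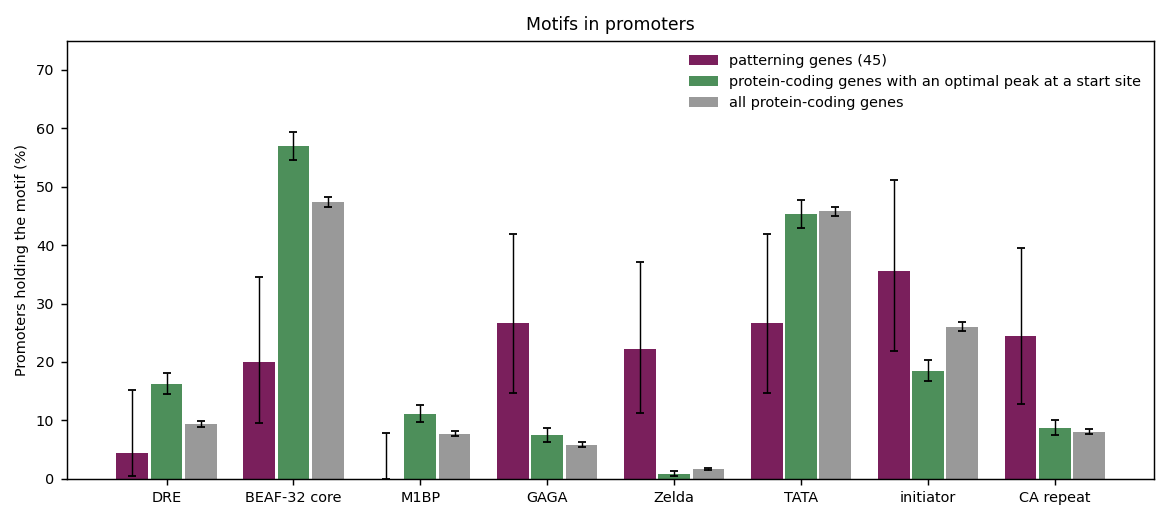
Share of promoters (y axis, %) holding each of 8 motifs, for patterning genes, protein-coding genes with an optimal peak at a start site, and all protein-coding genes. Bars start at 0 and error bars are 95% exact binomial intervals; GAGA and Zelda letters are more frequent in patterning promoters (26.7% and 22.2%) and the BEAF-32 core less (20%) than in both other sets.

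At the peaks themselves, motif letters were compared with those of the whole list. Of the 32 peaks, 21 were neither at nor in a patterning gene, so these windows cover mostly other sequence than the promoter windows. Within 100 bp of the 32 summits near patterning genes, the DRE matched at 2 (6.25%), against 5.49% of all optimal peaks, and the BEAF-32 core at 10 (31.2%), against 32.9%. GAGAGAG and CAGGTAG matched at none of the 32, which allows up to 10.9%, against 7.75% and 0.928%. TATAAA matched at 12 (37.5%, 21.1 to 56.3), against 29.0%, the E-box of Twist at 3 (9.38%), against 7.83%, and the CA repeat at 4 (12.5%), against 10.98%. Each of these intervals contains the share of the whole list.

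Of 73 other genes of the same pathways, 12 had an optimal summit at a start site (16.4%, 8.79 to 26.95), against 12.6% of protein-coding genes. That interval overlaps the interval of the patterning genes, and no difference between the lists was tested. With a window of 200 bp the counts were 6 of 73 other pathway genes and 3 of 45 patterning genes, against 9.34% of protein-coding genes. The 8 with the highest signal were Stat92E, the transcription factor of the JAK/STAT pathway (381.8), shn, a cofactor in BMP repression (370), sgg, the GSK3 kinase of the Wingless pathway (340.3), the EGF-like ligand spi (330.8), its receptor Egfr (270.3), the ETS effector pnt (218.7), ftz-f1, the nuclear receptor partner of Ftz (188.4), and pan, the TCF factor of the Wingless pathway (167.9). A body summit was found in 25 (34.2%, 23.5 to 46.3), against 7.36% of protein-coding genes, and a summit within 10 kb at 45 (61.6%, 49.5 to 72.8), against 44.1%. Per kb of gene body they had 0.0320 optimal summits, against 0.0215 in the patterning genes and 0.0151 in protein-coding genes. Per kb of 10 kb window the rates were 0.0341, 0.0264 and 0.0276 in the same order.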

How the data were processed

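The authors deposited 4 region lists with dm6 coordinates: optimal peaks, thresholded by IDR (the irreproducible discovery rate of replicates), 30000 pooled regions and 30000 regions per replicate. Per the deposited text, the 30000-region lists hold peaks and background prepared for IDR. In the pooled list, the strongest region that overlaps no optimal peak ranked 2479, with signal 132.9. The lowest signal in the optimal list was also 132.9, so the optimal and pooled counts are not separate evidence. The deposited signal is the authors' value per region on an unstated scale. The deposited −log10 of the q-value reached a ceiling (3.53 in the optimal list) and was not used for ranking. Summits were computed from the deposited offset. Read depth is unknown. For aligner, peak caller and threshold of IDR, the names and values were not given in the sources used here.

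Summits were placed on Ensembl release 115 gene models and RefSeq dm6 sequence, without transposable elements, with Python 3.11.15, numpy 2.4.6 and scipy 1.17.1 (matplotlib 3.10.9 for figures). A gene had a summit within 500 bp of any start site, in the body, or within 10 kb. Placement was tested on simulated summits. Shares have 95% exact (Clopper-Pearson) intervals. No test was run, since 1 group without a control gives none.

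The members, lists, windows and motifs were chosen with earlier results of these data known, and the promoter motif comparison was added later. Named with values are all members with an optimal summit within 10 kb, the 3 of each role with the best pooled rank, those without a pooled region, and the 8 strongest other pathway genes; further members are named to account for all 45. Sequences are from peaks at or in members, up to 149 bases either side of the summit, without untranslated exons; for ci and wg no stretch remained, and the peaks of twi and ptc are not printed.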

Additional observations from a re-analysis of the deposited data

How the results depend on the processing

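The counts kept within 1.5 times their value under most alternatives, and those that moved are given here. With only the stronger 1239 optimal peaks, patterning genes with a start-site summit numbered 1 in place of 3, those with a summit within 10 kb 11 in place of 17, and other pathway genes with a start-site summit 7 in place of 12. For the other pathway genes the count was 6 with a start-site window of 200 bp and 7 with the 5′ end of the gene record alone. The median number of pooled regions within 10 kb per patterning gene was 4 in the stronger 15000 pooled regions and 10 in replicate 3 alone, in place of 8. With 1 replicate at a time, patterning genes numbered 2 to 4 at start sites, 7 in both cases in the body and 16 to 18 within 10 kb in the strongest regions, where other pathway genes at start sites numbered 13 in both cases. In the full lists patterning genes numbered 23 to 36 at start sites and 27 to 29 in the body, and the median number of regions was 8 to 10. The start-site share of protein-coding genes was 9.34% at 200 bp, 14.2% at 1000 bp and 6.59% in the stronger 1239 peaks. No paired analysis was possible because there was 1 group. Depth is unknown, no control was analysed, and with 45 genes a share near the background cannot be told from a moderate difference.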

Other observations

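Outside the patterning genes, some strong optimal peaks lay in or near genes of the same pathways but not at those genes' own start sites. Their distance to start sites of other genes was not examined, and the examples were chosen after their values were seen. The record of ush, a cofactor of the GATA factor Pannier in dorsal ectoderm, held 6 optimal summits and none at a start site of ush. The best of them ranked 28 with signal 787.5. An optimal summit within 10 kb of cact, the inhibitor of Dorsal, ranked 80 with signal 524.6, while that at its start site ranked 1838. One within 10 kb of C15, a homeodomain gene of the amnioserosa, ranked 103 with signal 471.3.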
